A study of Mus musculus with 15 samples.

Results

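Dorsal root ganglia (DRG) of mice with a nerve injury were compared between animals that lack the miR-183 cluster in cells of the neural crest and control animals. All libraries labelled with spared nerve injury (SNI) were taken, which gave 6 of the 15 libraries of the study: 3 knockout (replicates 13, 19 and 21) and 3 control (replicates 15, 18 and 23). The study sequenced messenger RNA of the lumbar 4 to 6 ganglia from naive and injured mice of both kinds, 1 library per animal. In SNI the common peroneal and tibial branches of the sciatic nerve are tied and severed and the sural branch is spared, so a lumbar ganglion holds both injured and intact neurons. The knockouts had the genotype Wnt1-Cre; mirflox/flox. Among the controls, replicate 15 carried Wnt1-Cre alone, and replicates 18 and 23 were wild type (wt). Wnt1-Cre was thus in every knockout but, among the controls, in replicate 15 only, and its own effect was not tested. All 6 were 3 to 6 months old, on a mixed background that is mostly C57BL/6. Wnt1-Cre acts in the neural crest, which gives rise to the neurons and to the satellite and Schwann cells of the ganglion, so the deletion is not limited to neurons. Neither the time between injury and collection nor the side of the collected ganglia is stated in the labels used. The knockouts had animal numbers 948 to 956 and the controls 974 to 976, so the genotype and the order of the animals cannot be told apart.

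MicroRNAs are short RNAs that guide Argonaute proteins to messenger RNAs, mostly by pairing of the microRNA seed with a site in the 3′ UTR, which lowers the stability and translation of the target. The miR-183 cluster encodes miR-183, miR-96 and miR-182, is strongly expressed in sensory organs and sensory neurons, and is known for its role in hearing, vision and mechanical pain. Loss of the cluster is therefore read here as the level of transcripts that hold its sites, beside all other transcripts of the ganglion.

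The mature sequences of the cluster (RefSeq, build GRCm38.p6, chromosome 6, minus strand) are shown with the seed, bases 2 to 8, in capitals, because the seeds define the sites counted below. Counted from 1 at the 5′ end, the seed of miR-96-5p differs from that of miR-182-5p by C8A and from that of miR-183-5p by U2A.
miR-183-5p: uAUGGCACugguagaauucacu
miR-96-5p: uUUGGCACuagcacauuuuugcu
miR-182-5p: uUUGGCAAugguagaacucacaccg
An 8mer is the complement of the seed followed by A: GTGCCATA for miR-183-5p, GTGCCAAA for miR-96-5p and TTGCCAAA for miR-182-5p, searched on the transcript strand of the longest annotated 3′ UTR (GENCODE M21, GRCm38). A position can match at most 1 of these words. Sites of 7 genes described below, each in the 3′ UTR and 30 bases long with the 8mer in capitals, show how alike the matches are while their flanks differ.
B4galnt1, miR-96-5p site, chr10:127172109-127172138, plus strand: tcactttccaaGTGCCAAAgagcccagaag
Slc1a1, first miR-96-5p site, chr19:28912354-28912383, plus strand: acccagttaatGTGCCAAAttttccatttt
Slc1a1, second miR-96-5p site, chr19:28913595-28913624, plus strand: agccagaaatcGTGCCAAAgatagcaggaa
Cacna2d2, miR-96-5p site, chr9:107528215-107528244, plus strand: aatgtcaaaccGTGCCAAAtgctggggggg
Zdbf2, miR-96-5p site, chr1:63310247-63310276, plus strand: gaaaatctttcGTGCCAAAaagttataaca
Rasgrf1, miR-182-5p site, chr9:89913082-89913111, plus strand: agtaagagatcTTGCCAAAgcaacctcagt
Kcnk18, miR-182-5p site, chr19:59236934-59236963, plus strand: gattccagccgTTGCCAAAagcggcttctc
Gng4, miR-183-5p site, chr13:13825604-13825633, plus strand: aaaaaacaaatGTGCCATAtaaaagtgtag

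The injured libraries held 8075133 to 10822762 counts, except control replicate 23 with 5252920. That library stood apart before any test. It lay at 79.8 on the first principal component of the 6 libraries (51.2% of the variance) against -26.3 to -4.50 for the others, and 7.43% of its counts were mitochondrial against 2.26 to 3.60%. Its rank correlations with the others across genes were 0.943 to 0.958, and those among the other 5 libraries were 0.981 to 0.990. The median SD of log2 CPM, counts scaled to a library of 1000000, was 0.31 in control and 0.15 in knockout, and 0.16 in control without it. Results are therefore given with replicate 23 (3 against 3) and without it (3 against 2). Xist counts were found in control replicates 15 and 23 and knockout replicate 19, and counts of Y-linked genes in the other 3, so the sexes were not balanced. The markers of sensory neurons summed to 13700 to 15940 CPM in every injured library, and those of spinal cord and oligodendrocytes to 44.0 to 76.7. The cluster itself could not be read, since its microRNA gene entries gave 0 (Mir183), 0 (Mir96) and 1 (Mir182) counts over the 6 libraries. P-values below measure the spread between animals. In bulk RNA, fewer cells of a type and less RNA per cell cannot be told apart.

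After injury, 177 genes differed between knockout and control at an adjusted p under 0.05 (edgeR's quasi-likelihood test, Benjamini-Hochberg over 16976 genes, 1.04% of them). Of these, 113 were higher in the knockout (0.666%) and 64 lower (0.377%). At least 2-fold changes were found for 26 of the higher and 32 of the lower genes. The citrate carrier Slc25a1 had the smallest p, with 2.87-fold more transcript in the knockout, and the ganglioside synthase B4galnt1, the glutamate transporter Slc1a1 and the calcium channel subunit Cacna2d2 rose by over 2-fold. Genes that fell included the nicotinic receptor subunit Chrnb3, the calcium-binding protein Calb2 and the channel-interacting protein Kcnip1. For all 177 genes the 3 knockout libraries lay on one side of the 3 controls, which was also true of 16.2% of all tested genes. The spread behind these tests was estimated from all 15 libraries, the naive ones included. Fitted to the 6 injured libraries alone, the same test called 0 genes, with 1219 at an unadjusted p under 0.05 and Slc25a1 at an adjusted p of 0.0592, and DESeq2 on all libraries called 942. Leaving out 1 injured library at a time gave 57 to 3558 calls, the fewest without knockout replicate 19 and the most without control replicate 15.

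Without replicate 23, 127 of 17199 genes were called (0.738%), 84 higher (0.488%) and 43 lower (0.25%). The calls shared 104 genes, which are 58.8% of the 177 called with replicate 23. All 177 kept their sign, which could hardly change because their groups did not overlap. Their median size on the log2 scale was 0.82 with the library and 0.67 without it. The size was smaller without it for 158 of the 177. Replicate 23 was the lowest of the 6 libraries for 90 of the 113 higher genes and the highest for 49 of the 64 lower genes. Its mitochondrial share and depth moved with these values, and their part in the calls was not tested. Among all 177 genes, 49 (36 higher and 13 lower) were called whichever of the 6 libraries was left out, and Slc25a1, B4galnt1, Mob3a, Gng4, Slc1a1, Cacna2d2, Rasgrf1, Zdbf2, Kcnk18, Csf1, Calb2, Chrnb3 and Kcnip1 were among them.

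**Figure D1:**
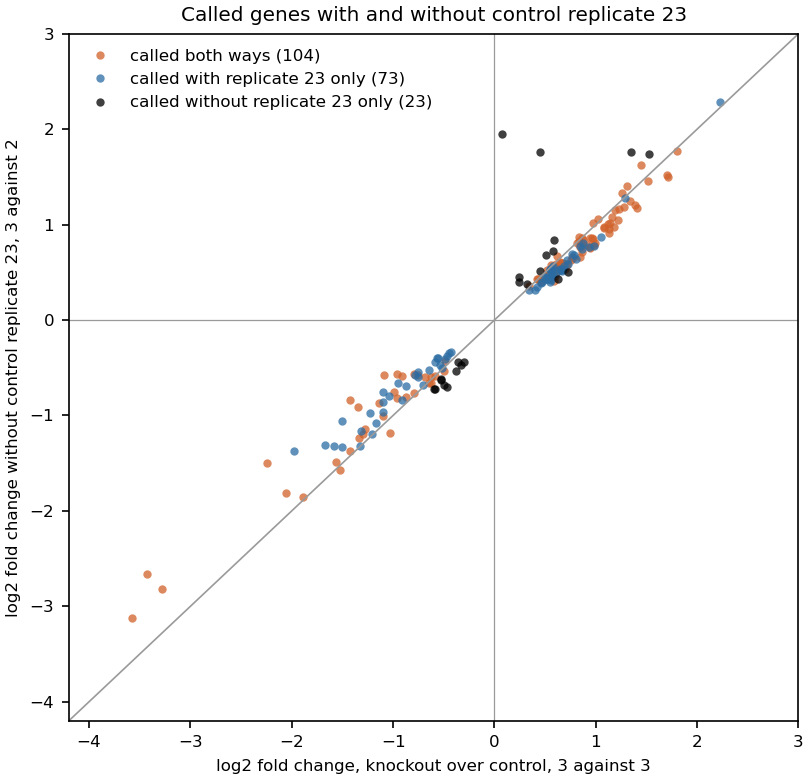
Log2 fold change of knockout over control in injured ganglia with all 6 libraries (x axis) and without control replicate 23 (y axis), for genes called in either fit. Points near the diagonal have equal values. Most of the 177 genes called with replicate 23 lie nearer to 0 on the y axis. All 177, whose groups did not overlap, keep their sign.

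Described first are higher genes with an 8mer chosen for their small p, a choice that favours values close together within each group. Slc25a1 (ENSMUSG00000003528, chr16:17925223-17928219), which exports citrate from mitochondria for lipid synthesis, stood at 103, 121 and 96.0 CPM in control replicates 15, 18 and 23 and at 294, 307 and 315.5 CPM in knockout replicates 13, 19 and 21. The knockout values were close together and far from all controls (log2 1.52, SE 0.10, adjusted p = 5.81e-07, edgeR), and the log2 value was 1.46 without replicate 23 (adjusted p = 1.8e-07). B4galnt1 (chr10:127165225-127172330), the synthase of the complex gangliosides GM2 and GD2, had 31.4, 31.9 and 18.1 CPM in control and 81.0, 90.2 and 99.2 CPM in knockout. Its lowest value was that of replicate 23, and the log2 value was 1.71 (SE 0.16, adjusted p = 8.61e-05) with it and 1.52 without it. Gng4, a G protein gamma subunit of neurons, had 16.1, 17.2 and 13.2 CPM in control and 37.0, 37.4 and 30.9 CPM in knockout (log2 1.16, SE 0.13). Rasgrf1 (chr9:89909908-90026977), a calcium-responsive activator of Ras, had 26.2, 25.7 and 15.1 CPM in control and 54.6, 55.7 and 68.5 CPM in knockout (log2 1.39, SE 0.17, adjusted p = 0.000588). In each of these genes, as in all genes called higher, every knockout library was above every control library. The groups lay apart in 16.2% of all tested genes.

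Slc1a1 (chr19:28835049-28913960), the neuronal glutamate and cysteine transporter EAAC1 and a known miR-96 target, has 2 miR-96-5p 8mers. It had 6.15, 6.50 and 4.53 CPM in control and 12.9, 16.2 and 13.6 CPM in knockout (log2 1.28, SE 0.17, adjusted p = 0.00101). Zdbf2, an imprinted gene of uncertain function with sites of miR-96-5p and miR-183-5p, had 1.98, 4.23 and 2.81 CPM in control and 12.6, 7.86 and 11.4 CPM in knockout (log2 1.80, SE 0.26). The groups of both genes were apart, as in every called gene, with a wider spread at the low level of Zdbf2. The other genes with an 8mer and the smallest p were Mob3a, a member of the Mob family of kinase regulators (log2 1.12), Klhl8, a substrate adaptor of a ubiquitin ligase (0.84), Chst10, which makes the HNK-1 carbohydrate of neural adhesion molecules (1.14), Myadm, a membrane organising protein (0.86), Ankrd27, which steers endosomal traffic with Rab proteins (0.75), and Ppm1f, a phosphatase of calcium/calmodulin-dependent kinases (0.99). Of these, Mob3a overlaps Gm26541, which is on the opposite strand and also rose (log2 1.08), and without the strand setting of the counting their reads cannot be told apart.

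Among the largest rises were also genes without an 8mer. Tekt2, a tubulin-binding filament protein of cilia, rose 4.68-fold from 1.88, 1.86 and 2.16 CPM to 10.2, 8.24 and 8.90 CPM (adjusted p = 0.029), and its adjusted p without replicate 23 was 0.0669. Nrsn2, a vesicle protein of neurons, rose from 3.96, 4.03 and 4.96 CPM to 9.86, 10.1 and 11.6 CPM (log2 1.31, SE 0.20, adjusted p = 0.0033). In both genes, as in all genes called higher, every knockout library was above every control library. Islr2, a membrane protein of growing axons, had 3.65, 5.16 and 3.24 CPM in control and 14.2, 7.20 and 10.2 CPM in knockout (log2 1.34, adjusted p = 0.0224). Rspo4, a secreted activator of Wnt signalling, rose with a log2 fold change of 1.23 (adjusted p = 0.0116), and Cep170b, a microtubule protein with sites of both miR-183-5p and miR-96-5p, with 1.18 (adjusted p = 0.00759). Fam78a, with a miR-182-5p site, was at 0.72 to 1.15 CPM in control and 1.77 to 2.90 CPM in knockout (log2 1.29), and its adjusted p was 0.0467 with replicate 23 and 0.0994 without it. With 1 other library left out, the adjusted p reached 0.0851 for Tekt2 (knockout replicate 19) and 0.0764, 0.0622 and 0.197 for Islr2, Rspo4 and Fam78a (knockout replicate 21).

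**Figure D2:**
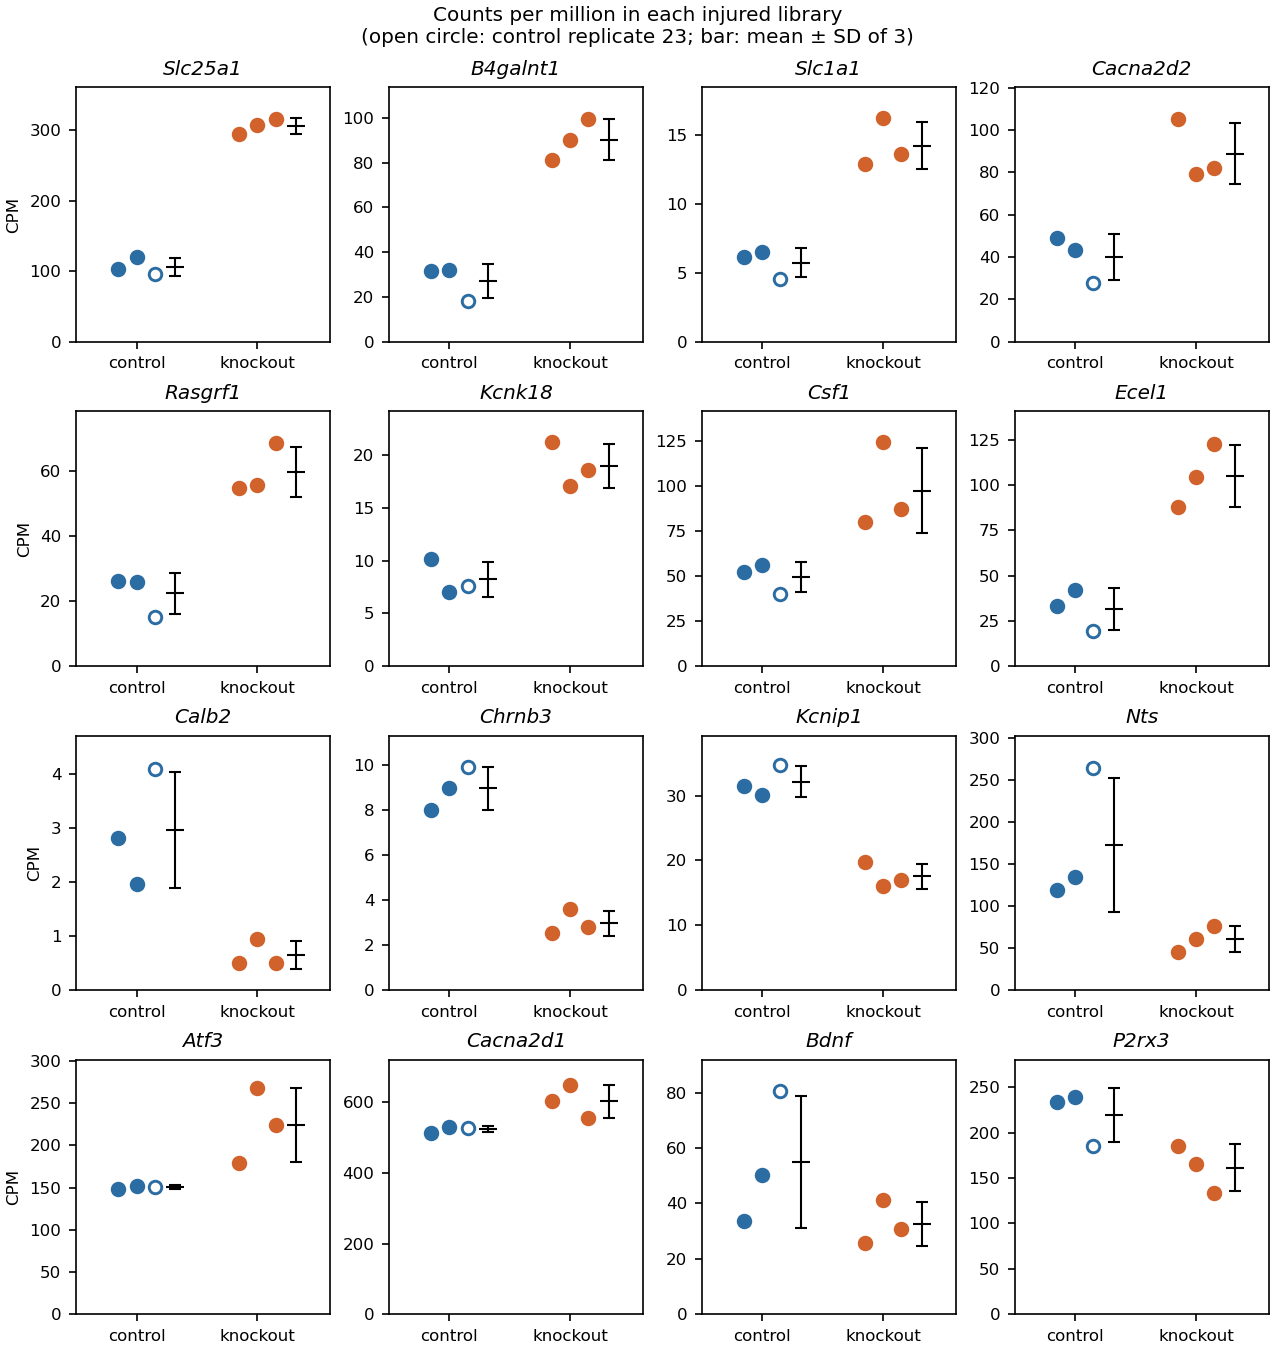
CPM (y axis, from 0) of 16 genes in each injured library, control at left and knockout at right, with replicate 23 as an open circle and the mean ± SD of 3 beside each group. The groups are apart from Slc25a1 to Nts, all of which were called. The bottom panels, from Atf3 to P2rx3, were not called. Replicate 23 is the highest control for Nts and Bdnf, and also for Calb2, Chrnb3 and Kcnip1.

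Of the 107 higher genes with an annotated 3′ UTR, 52 held an 8mer of the cluster (48.6%), as did 1 of 60 lower genes (1.67%) and 1295 of 14284 genes not called (9.07%). Over all tested genes with a 3′ UTR the share was 9.33%. Sites of miR-96-5p were the most frequent, in 39 of the 107 higher genes (36.4%) against 3% of all tested genes. Those of miR-182-5p were in 13 (12.1%) against 5.09%, and those of miR-183-5p in 5 (4.67%) against 1.93%. With 7mer-m8 sites, the complement of the seed alone, the shares were 69.2% of the higher, 11.7% of the lower and 26.5% of the genes not called. The median 3′ UTR was 1516 bases in the higher genes, 1182 in the lower and 1191 in the genes not called. The higher genes had the longest 3′ UTRs and the largest share with sites, while the lower and uncalled genes differed in share but little in length. Among genes with an 8mer, the median was 1989 bases in the higher genes, 2637 in those not called and 6057 in the 1 lower gene. The part of length was not tested. In other fits the share was 15% (216 of 1437) without control replicate 15, 26.6% (114 of 429) with DESeq2, 27.5% (61 of 222) with limma-voom with quality weights, and 55.1% (43 of 78) without replicate 23. Among the 36 higher genes that were called whichever library was left out, 24 of the 33 with an annotated 3′ UTR held an 8mer. The 1 lower gene with a site was Rab27b, a small GTPase of vesicle release (log2 -0.80), with an 8mer of miR-183-5p, which lost its call without knockout replicate 19 (adjusted p = 0.117).

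The shift over all transcripts with a site was small. The 433 tested genes with a miR-96-5p 8mer had a median log2 fold change of 0.18 (0.14 without replicate 23), those with a miR-182-5p 8mer 0.06, those with a miR-183-5p 8mer 0.05, and genes without any 8mer or 7mer-m8 -0.02. The 162 genes with at least 2 8mers had a median of 0.16. In single libraries, the median of the miR-96-5p genes relative to genes without a site was -0.08, -0.02 and -0.21 on the log2 scale in control replicates 15, 18 and 23, and 0.11, 0.11 and 0.08 in knockout replicates 13, 19 and 21. The lowest value was again that of replicate 23, and the other controls were also below every knockout. Of 35 targets of the cluster known from publications, Slc1a1 and Cacna2d2 rose and none fell, where 0.666% of all tested genes rose. Their median was 0.19 against -0.01 over all genes, with 26 of 35 above 0 against 8298 of all 16976, and Foxo3, a transcription factor among them, reached an adjusted p of 0.0597 (log2 0.59).

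**Figure D3:**
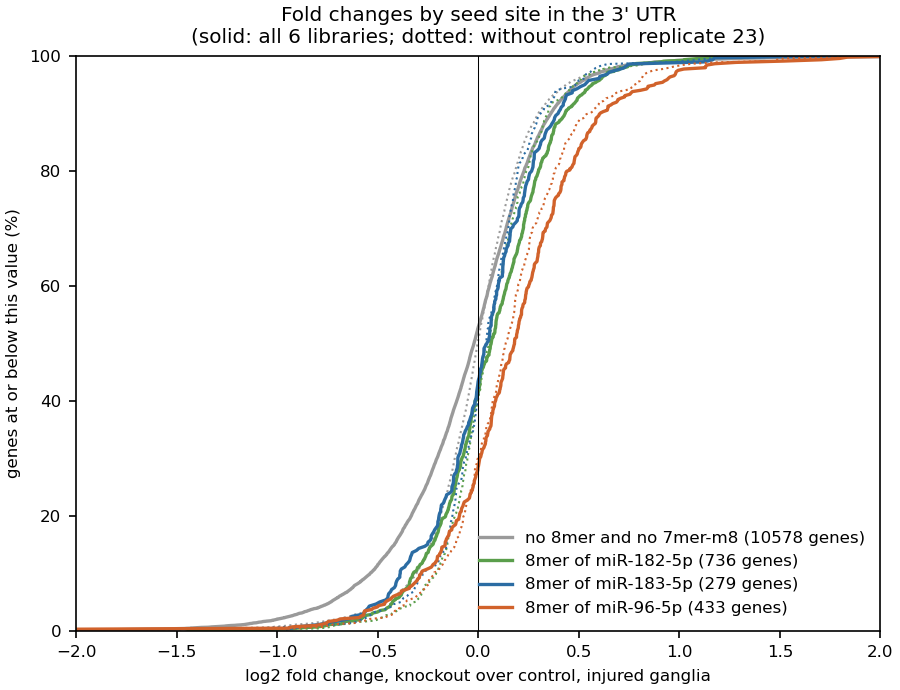
Cumulative share of genes (y axis, %) by log2 fold change of knockout over control in injured ganglia (x axis), for genes with an 8mer of each microRNA and genes with no site, with all 6 libraries (solid) and without control replicate 23 (dotted). The miR-96-5p curve lies to the right of the others, with a median of 0.18, and the curve without sites has a longer lower tail with replicate 23 than without it.

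Voltage-gated calcium channels open on depolarisation and drive transmitter release, and their auxiliary subunits set channel number at the membrane. Of 15 calcium channel genes tested, 2 rose and none fell, where 0.666% of all tested genes rose and 0.377% fell. The list median was 0.20 (0.06 without replicate 23). Cacna2d2 (chr9:107399612-107529343), an α2δ subunit that gabapentinoid drugs bind, stood at 49.1, 43.3 and 27.8 CPM in control and 105, 79.2 and 82.1 CPM in knockout. The lowest control was replicate 23, and the log2 value was 1.13 (SE 0.16, adjusted p = 0.00185, edgeR) with it and 0.95 without it (adjusted p = 0.000437). Cacnb1, a β subunit, had 54.8, 49.3 and 33.7 CPM in control and 80.4, 82.0 and 91.1 CPM in knockout (log2 0.87, adjusted p = 0.00674). The related α2δ subunit Cacna2d1 was far more abundant, at 513, 529 and 528 CPM in control and 602, 649 and 557 CPM in knockout. Its groups did not overlap, as in 16.2% of all tested genes, and the difference of 0.20 (SE 0.10) did not pass the test (adjusted p = 0.228). Of 14 sodium channel genes none was called, and Scn3a, the embryonic channel that returns after nerve injury, had 10.5, 10.5 and 9.93 CPM in control and 18.7, 13.7 and 11.9 CPM in knockout (log2 0.51, adjusted p = 0.108). The adjusted p of Scn3a was 0.240 without knockout replicate 19 and 0.049 without control replicate 15, a fit that called 3558 of 17235 genes.

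Potassium channels hold neurons near rest. The 12 two-pore potassium channel genes included 1 that rose, where 0.666% of all tested genes rose and 0.377% fell. This was Kcnk18 (TRESK), which sets the background potassium current of nociceptors. It had 10.1, 7.02 and 7.55 CPM in control and 21.2, 17.1 and 18.6 CPM in knockout (log2 1.19, SE 0.22, adjusted p = 0.0119). Of 34 voltage-gated potassium and HCN channel genes, 2 fell. Kcnip1, a calcium sensor that modulates Kv4 channels, had 31.5, 30.2 and 34.7 CPM in control and 19.7, 16.0 and 17.0 CPM in knockout (log2 -0.87, SE 0.12, adjusted p = 0.00154), with replicate 23 close to the other controls. Kcnq5, a subunit of the M current, had 31.3, 24.2 and 25.3 CPM in control and 17.95, 17.2 and 17.1 CPM in knockout (log2 -0.63, adjusted p = 0.023, and 0.114 without knockout replicate 19). None of the 22 TRP, mechanical and acid sensing channel genes and none of the 12 purinergic receptors was called, and P2rx3, an ATP-gated channel of nociceptors, had a log2 difference of -0.45 (adjusted p = 0.153).

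Among 44 neurotransmitter receptors and transporters, Slc1a1 rose, and the genes that fell included a pair of nicotinic receptor subunits. Over all tested genes, 0.666% rose and 0.377% fell. Chrnb3, the β3 nicotinic acetylcholine receptor subunit, had 8.03, 8.98 and 9.93 CPM in control and 2.53, 3.60 and 2.80 CPM in knockout, a 2.96-fold lower level (log2 -1.57, SE 0.19, adjusted p = 0.000602). Its neighbour on chromosome 8, Chrna6, encodes the α6 subunit with which it assembles and had 57.2, 50.1 and 73.6 CPM in control and 41.7, 26.5 and 38.2 CPM in knockout (log2 -0.76, adjusted p = 0.0414). Chrna6 lost its call without replicate 23 (adjusted p = 0.11) and Chrnb3 kept it. Without knockout replicate 19 the adjusted p of Chrna6 was 0.196.

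Sensory neurons of the DRG fall into classes for touch, itch and pain that differ in their receptors and peptides. Among 11 markers of the itch neurons that make natriuretic peptide and somatostatin, 3 fell, where 0.377% of all tested genes fell, and the median was -1.03 (-1.05 without replicate 23, when only Pde4c was called). Il31ra, the receptor of the itch cytokine interleukin 31, had 35.8, 24.6 and 35.6 CPM in control and 16.1, 15.9 and 10.7 CPM in knockout (log2 -1.16, SE 0.25, adjusted p = 0.0365 with replicate 23 and 0.101 without it). Nts, which encodes neurotensin, had 119, 135 and 264 CPM in control and 45.3, 60.3 and 76.2 CPM in knockout (log2 -1.50, adjusted p = 0.0391). Its highest value was in replicate 23, and its adjusted p without that library was 0.077 (log2 -1.05). Pde4c, a cAMP phosphodiesterase, fell with a log2 fold change of -1.03 (adjusted p = 0.0465). Nppb and Sst, the peptides that name this class, did not pass: Nppb had 9.80, 9.60 and 42.3 CPM in control and 7.96, 2.46 and 2.60 CPM in knockout (adjusted p = 0.1). Of 9 markers of the Mrgpra3 itch neurons, 5 were above 0 (median 0.21) and 1 was called, where 0.666% of all tested genes rose. This was Mrgprx1, an itch receptor of a large family of near copies among which reads may be split. It rose from 14.4, 16.8 and 17.3 CPM to 41.8, 22.2 and 31.1 CPM (log2 0.97, adjusted p = 0.0224). Otoa (log2 -0.88) and Mrgpra2b (-0.86) were among the markers below 0 and were not called. With 1 knockout library left out, the adjusted p reached 0.157 for Il31ra and 0.08 for Mrgprx1 (replicate 21), and 0.153 for Nts and 0.192 for Pde4c (replicate 19).

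Of 14 non-peptidergic nociceptor markers, 11 were below 0 (median -0.28), and Prkcq, a protein kinase C, fell with a log2 fold change of -0.59 (adjusted p = 0.0198). Over all tested genes, 0.377% fell and 0.666% rose. In 15 neuropeptide genes Calcb and Nts fell and the median was -0.63, which was -0.27 without replicate 23. Calcb, the β form of calcitonin gene-related peptide, had 92.2, 113 and 182 CPM in control and 72.4, 61.4 and 70.3 CPM in knockout (log2 -0.91, SE 0.18, adjusted p = 0.0224, and -0.58, adjusted p = 0.0168 without replicate 23). Tac1, the substance P gene, had 485 CPM in replicate 23 against 161 and 193 in the other controls and 99.1 to 157 in knockout, and was not called (adjusted p = 0.11). The summed neuropeptide level was 1565, 1781 and 3712 CPM in control and 1458 to 1561 in knockout, so the excess of control lay mostly in replicate 23. Of 9 markers of C low-threshold mechanoreceptors, the vesicular glutamate transporter Slc17a8 fell (log2 -1.21, adjusted p = 0.04) and 8 were not called. The list median was -0.05, with 2 genes above 0. Without replicate 23, Slc17a8 had a nearly equal fold change that missed the threshold (log2 -1.19, adjusted p = 0.0743). Calb2, the calcium buffer calretinin and a marker of some A-fibre neurons, had 2.82, 1.96 and 4.10 CPM in control and 0.51, 0.95 and 0.50 CPM in knockout (log2 -2.06, SE 0.32, adjusted p = 0.00402) and was the only 1 of 18 A-fibre markers called. Calb2 kept its call whichever library was left out, while the adjusted p reached 0.114 for Prkcq and 0.122 for Calcb without knockout replicate 19 and 0.157 for Slc17a8 without knockout replicate 21.

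The other largest falls included several genes of low level. Calhm4, of a family of calcium-modulated channels, had 6.99, 3.61 and 12.1 CPM in control and 0.38, 0.95 and 0.40 CPM in knockout (log2 -3.58, SE 0.47, adjusted p = 0.00101). Slc51a, a subunit of an organic solute transporter, had 3.55, 1.14 and 5.61 CPM in control and 0.20 to 0.51 CPM in knockout (log2 -3.28, adjusted p = 0.00759). Both were lower in every knockout library, as were all genes called lower, and the control values spread by several-fold. Ceacam10, of a family of near copies, was highest in replicate 23 (20.1 CPM against 8.03 and 4.03), with log2 values of -2.25 with it and -1.50 without it. Btc, the EGF receptor ligand betacellulin, had 3.03, 6.92 and 5.18 CPM in control and 0.88 to 1.80 CPM in knockout (log2 -1.88, adjusted p = 0.0154). Ly86, a partner of a Toll-like receptor relative, had 82.3, 114 and 251 CPM in control and 30.8 to 46.0 CPM in knockout, and its adjusted p was 0.0332 with replicate 23 and 0.103 without it. The sulfotransferase Chst9 (log2 -1.67), the lectin-like Chodl (-1.58) and the calcium pump regulator Pln (-1.50) were called with replicate 23 but not without it. Ms4a3 (-1.43), Chia1, an acidic chitinase (-1.43), and Ccdc68, a centrosomal protein (-1.34), were called both ways, with -0.84, -1.37 and -0.91 without replicate 23. Of these genes Calhm4 kept its call whichever library was left out. Without knockout replicate 21 the adjusted p was 0.0623 for Slc51a, 0.138 for Ceacam10, 0.08 for Btc and 0.143 for Ly86. Without knockout replicate 19 it was 0.129 for Chst9, 0.18 for Chodl, 0.0665 for Pln, 0.134 for Ms4a3, 0.0672 for Chia1 and 0.0852 for Ccdc68.

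The lipid synthesis genes that passed the test were all higher in the knockout, where 0.666% of all tested genes were called higher. Citrate that leaves mitochondria through Slc25a1 is the source of cytosolic acetyl-CoA for fatty acids and cholesterol. Of 19 citrate and fatty acid genes, Slc25a1 and Fasn rose (median 0.18, 14 above 0). Fasn, the fatty acid synthase, had 388 ± 117 CPM in control and 805 ± 192 CPM in knockout (SD, n = 3 each, highest in knockout replicate 19; log2 1.05, SE 0.21, adjusted p = 0.0224), and missed the threshold without replicate 23 (log2 0.87, adjusted p = 0.0714). The 23 cholesterol genes had a median of 0.10, and of 0.20 without that library, and none fell. Mvd, an enzyme of the mevalonate pathway, had 51.5, 51.7 and 43.4 CPM in control and 81.3, 80.9 and 62.3 CPM in knockout (log2 0.61, SE 0.12, adjusted p = 0.0224, and 0.0394 without replicate 23). Of 26 ganglioside and sialic acid genes, B4galnt1, St6galnac6 and Fut9 rose and none fell. St6galnac6, a sialyltransferase, had 51.5, 52.5 and 40.1 CPM in control and 70.1 to 78.3 CPM in knockout (log2 0.62, adjusted p = 0.0162), and Fut9, a fucosyltransferase, had 1.88 to 2.81 CPM in control and 5.31 to 6.20 CPM in knockout (log2 1.26, adjusted p = 0.0244). Adipocyte markers summed to 50.0, 111 and 74.7 CPM in control and 35.6, 290 and 46.0 CPM in knockout, so the highest sum, in knockout replicate 19, went with the highest Fasn value, and its part in that result was not tested. Without knockout replicate 19 the adjusted p was 0.12 for Fasn, 0.123 for Mvd and 0.11 for Fut9, and without knockout replicate 21 it was 0.0804 for St6galnac6.

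Of 39 genes of the response to nerve injury, Csf1 and Ecel1 rose and Nts fell (median 0.20), where 1.04% of all tested genes were called. Csf1, the cytokine by which injured sensory neurons act on microglia, had 52.2, 56.3 and 40.1 CPM in control and 80.3, 124 and 87.3 CPM in knockout (log2 0.97, SE 0.15, adjusted p = 0.00353, and 0.86, adjusted p = 0.00481 without replicate 23). Ecel1, an endopeptidase induced in injured neurons, had 33.4, 41.8 and 19.2 CPM in control and 88.2, 104 and 123 CPM in knockout (log2 1.72, SE 0.34, adjusted p = 0.0315). Atf3, the transcription factor most used to mark injured neurons, had 149, 152 and 151 CPM in control and 180, 268 and 224 CPM in knockout. Its groups did not overlap, as in 16.2% of all tested genes, and the log2 difference of 0.57 (SE 0.17) did not pass the test (adjusted p = 0.105). The adjusted p of Atf3 was 0.156 without replicate 23, 0.0452 without control replicate 15 and 0.3285 without knockout replicate 19. Sprr1a (log2 0.82, adjusted p = 0.0676) and Gap43 (0.51, adjusted p = 0.0536), both growth-associated, also did not pass, though they did without knockout replicate 13 (Sprr1a, 0.0157) or control replicate 18 (Gap43, 0.0217). Without knockout replicate 19 the adjusted p was 0.267 for Sprr1a and 0.234 for Gap43. Bdnf, a neurotrophin, had 33.6, 50.3 and 80.7 CPM in control and 25.7, 41.1 and 30.7 CPM in knockout, with overlapping groups (log2 -0.73 with replicate 23 and -0.35 without it, adjusted p = 0.155 and 0.595, and 0.0169 without control replicate 15). The fit without control replicate 15, in which Atf3 and Bdnf passed, called 3558 of 17235 genes. Of 19 immediate early genes none was called, although 17 were above 0 with a median of 0.46 (0.43 without replicate 23), led by Junb at 6.65 ± 0.38 CPM in control and 10.7 ± 2.40 CPM in knockout (SD, n = 3 each, adjusted p = 0.0887 with edgeR's test). Of 25 neurofilament, peripherin and tubulin genes, Ina, Tubb6 and Tubb4a rose, and Ina (log2 0.95, adjusted p = 0.00674) was the only 1 called without replicate 23. Without knockout replicate 19 the adjusted p was 0.0504 for Ina, 0.206 for Tubb6 and 0.196 for Tubb4a, and without knockout replicate 21 it was 0.135 for Ecel1. None of 45 axon guidance genes was called.

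Lists of markers of the other cells of the ganglion were examined next. Over all tested genes 1.04% were called, so at that share few calls would fall in lists of these sizes. None of 15 satellite glia, 17 myelinating Schwann cell, 17 endothelial and mural, 26 macrophage, 14 lymphocyte and neutrophil, 8 erythroid, 26 fibroblast and matrix and 36 interferon and antigen presentation genes was called with all libraries. Without replicate 23, Csf1r, the receptor of Csf1, was called among macrophage markers, with 49.5 and 56.7 CPM in the remaining controls, 60.4 in replicate 23 and 71.3 to 83.9 CPM in knockout (log2 0.52, adjusted p = 0.0246). Macrophage markers summed to 577, 871 and 1054 CPM in control and 750 to 1046 CPM in knockout. Aldh1l1, an enzyme of folate metabolism and an astrocyte marker, rose (log2 0.84, adjusted p = 0.00353). It was the only 1 called of 5 tested spinal cord and oligodendrocyte markers, where 0.666% of all tested genes rose. Skeletal muscle markers summed to 76.6, 637 and 169 CPM in control and 1169, 290 and 1834 CPM in knockout, with a median of 1.85 over 23 genes and none called. Cytosolic ribosomal protein genes summed to 9876 CPM in replicate 23 and to 3326 to 4223 CPM in the other 5 libraries. Their median was -0.67 over 81 genes with replicate 23 and -0.08 without it. Genes of nuclear oxidative phosphorylation (-0.79 and -0.11) and mitochondrially encoded genes (-1.0 and -0.29) moved in the same way, and none of these was called.

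**Figure D4:**
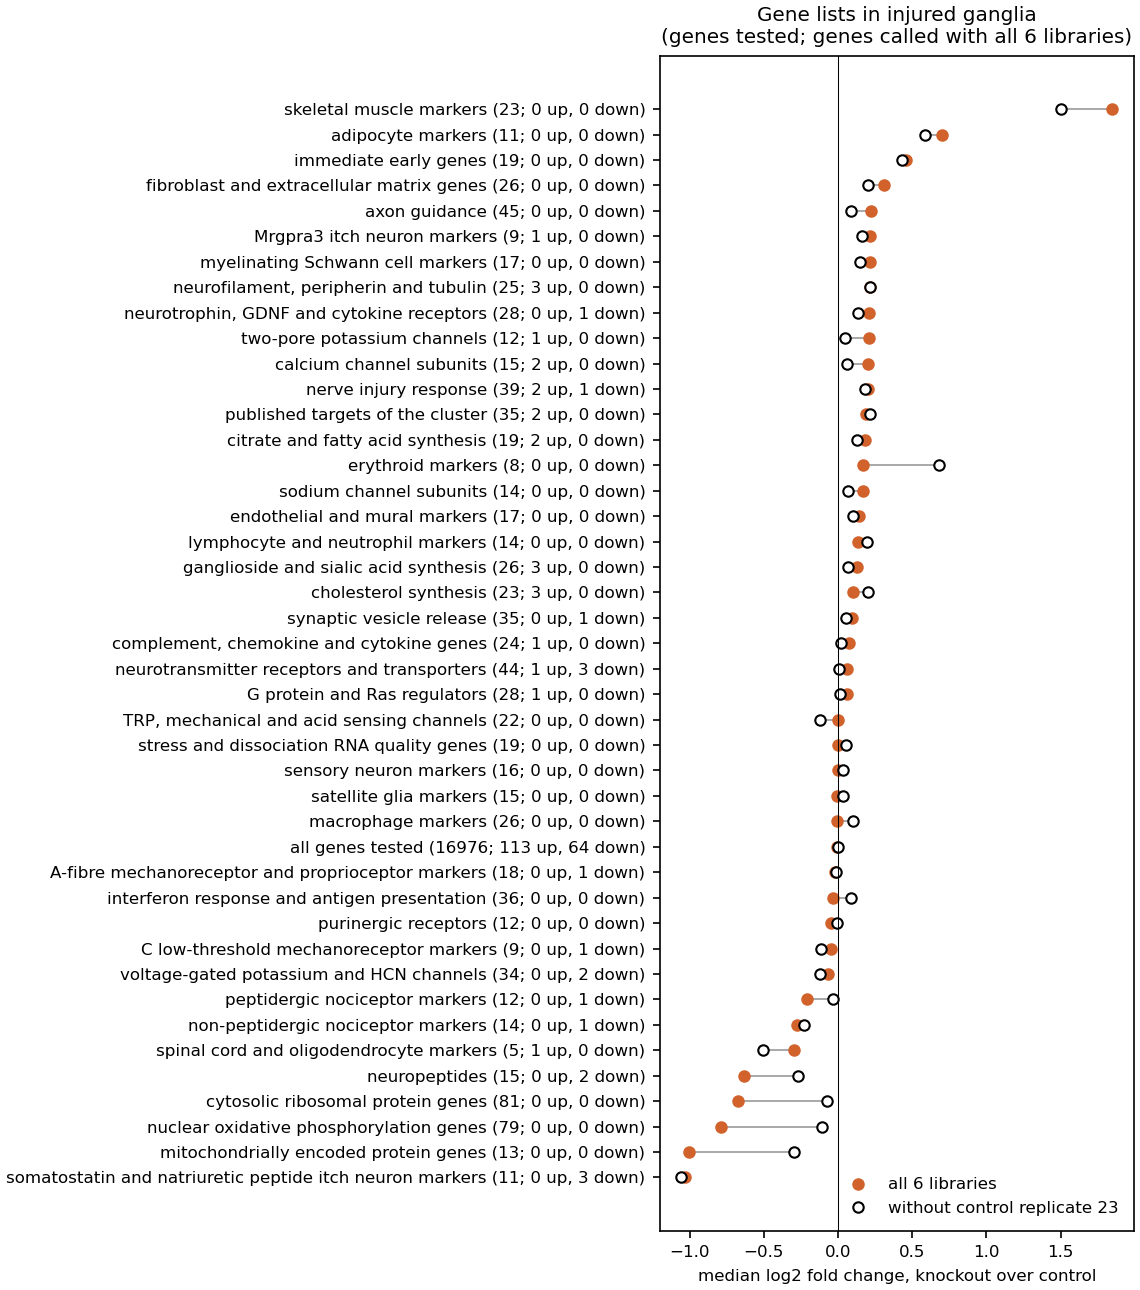
Median log2 fold change of knockout over control (x axis) for each gene list in injured ganglia with all 6 libraries (filled) and without control replicate 23 (open), with the genes tested and called in brackets. The ribosomal, oxidative phosphorylation, mitochondrial and neuropeptide lists lie below 0 with replicate 23 and nearer to 0 without it, and the itch neuron list with natriuretic peptide stays near -1.03.

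Genes called without replicate 23 but not with it were 23, of which 13 were higher and 10 lower. Rgs2, a regulator of G protein signalling with 2 8mers, had 14.6 and 16.8 CPM in the remaining controls, 25.7 CPM in replicate 23 and 26.2 to 29.7 CPM in knockout, and its log2 fold change was 0.84 (adjusted p = 0.00315) without and 0.58 (adjusted p = 0.1) with replicate 23. Nell1, a secreted neuronal glycoprotein, had 2.92, 1.96 and 5.61 CPM in control and 5.68 to 10.2 CPM in knockout (log2 1.76 without and 1.35 with replicate 23), and the anion exchanger Slc4a3 rose with a log2 of 0.43. In the other direction Rgs11, also a G protein regulator, had 55.0, 52.4 and 27.6 CPM in control and 31.6 to 33.7 CPM in knockout (log2 -0.70 without and -0.47 with replicate 23). The prostacyclin receptor Ptgir (log2 -0.63) and Hif1an, an oxygen-sensing hydroxylase (-0.54), also fell without replicate 23. In Rgs2 and Rgs11 the value of replicate 23 was near the knockout values.

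The naive animals of the study, 5 controls and 4 knockouts, share no library with the injured groups. Naive control replicates 1, 2, 3 and 6 carried Wnt1-Cre and replicate 7 was wild type, whereas only replicate 15 of the injured controls carried it. The injured and naive contrasts therefore also differ in Wnt1-Cre among the controls, and its part was not tested. In naive animals 321 genes were called (1.89%), 151 higher (0.889%) and 170 lower (1%). Of the 177 genes called after injury, 165 had the same sign in naive ganglia, 81 were also called there in the same direction, and none was called in the opposite direction. The 81 are 45.8% of the genes called after injury and 25.2% of those called in naive ganglia. The median of the 113 higher genes was 0.72 after injury and 0.42 in naive ganglia, and that of the 64 lower genes -1.01 and -0.51, where the first value of each pair belongs to the selection itself. Slc25a1 had log2 fold changes of 1.52 and 1.46, Gng4 1.16 and 1.18, Cacna2d2 1.13 and 1.04, Slc1a1 1.28 and 1.51, and Calb2 -2.06 and -1.73 in injured and naive ganglia. Among genes with smaller naive values were Csf1 (0.97 and 0.34), Fasn (1.05 and 0.27), Calcb (-0.91 and -0.02), Chodl (-1.58 and 0.00) and Hyi (-1.52 and -0.12). Il31ra (-1.16 and -2.19) and Gap43 (0.51 and 0.87) had larger naive values.

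Of the 177 genes, 96 were called after injury and not in naive ganglia, which does not show that the groups differ. The difference between the genotype contrasts was tested directly and no gene passed (edgeR's quasi-likelihood test, smallest adjusted p = 0.0872), while 2281 had an unadjusted p under 0.05. DESeq2 called 13 genes, limma-voom 0, and limma-voom with quality weights 3. With edgeR, 1235 genes passed without control SNI replicate 15, and 0 or 1 without any other single library. Flnc, an actin cross-linking filamin of muscle and other cells, was among the genes with the smallest adjusted p by edgeR and among the genes called by DESeq2 and by voom with quality weights. It had 18.9, 29.6 and 14.2 CPM in injured controls and 41.0, 50.0 and 58.0 CPM in injured knockouts (log2 1.22, SE 0.19, adjusted p = 0.00403), and a log2 difference of -0.39 (adjusted p = 0.387) in naive ganglia. The summed muscle markers, given above, were highest in knockout replicate 21 and, among the controls, in replicate 18. These libraries also had the highest Flnc of their groups. The other libraries were ordered differently. Knockout replicates 13 and 19 had muscle sums of 1169 and 290 CPM, and control replicates 15 and 23 had 76.6 and 169 CPM. In both pairs the library with less muscle RNA had more Flnc. In naive ganglia the muscle list had a median of 1.50, where Flnc was at -0.39. The part of muscle RNA in this result was not tested.

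**Figure D5:**
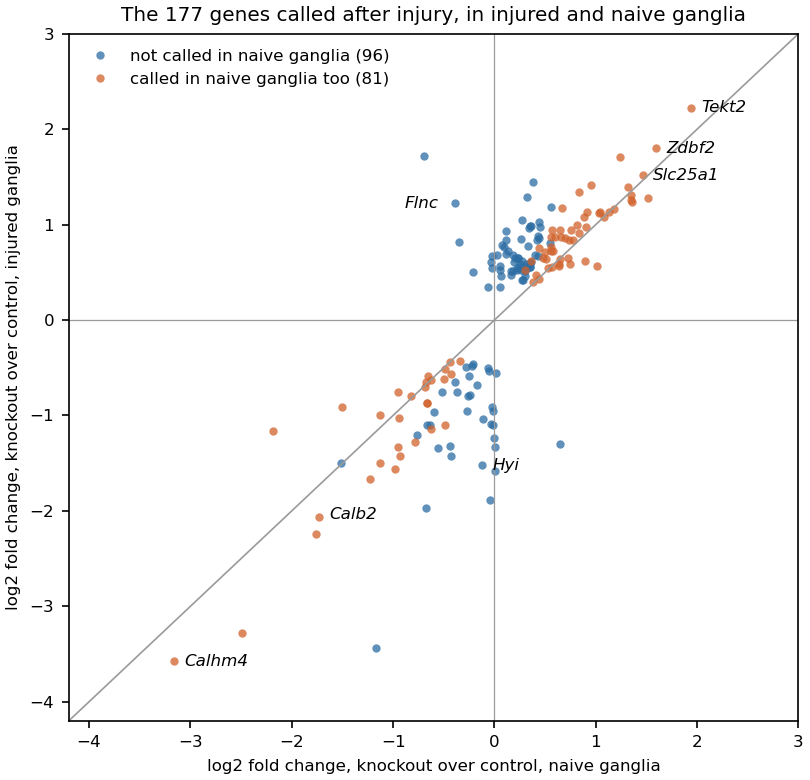
Log2 fold change of knockout over control in naive (x axis) and injured ganglia (y axis) for the 177 genes called after injury, coloured by whether they were called in naive ganglia (81) or not (96). Slc25a1 and Calb2 lie near the diagonal of equal values, and Hyi and Flnc lie near or past 0 on the x axis.

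The cluster lies at chr6:30165918-30169737. Of 23 genes tested within 1000000 bases on either side, 1 was called after injury, Flnc, which lies 704 kb away, and none was called in naive ganglia. Over all tested genes, 1.04% were called after injury. The nearest genes, Nrf1 (12 kb, a transcription factor of mitochondrial genes) and Ube2h (42 kb, a ubiquitin-conjugating enzyme), had log2 fold changes of 0.03 and 0.18 (adjusted p = 0.934 and 0.25). Among genes called together in neighbouring positions, Hyi, a hydroxypyruvate isomerase, and Med8, a Mediator subunit, lie 46593 bases apart on chromosome 4. Hyi had 19.3, 13.5 and 14.5 CPM in control and 5.81, 4.64 and 6.10 CPM in knockout (log2 -1.52, SE 0.25, adjusted p = 0.00516), and Med8 fell by 0.68 on the log2 scale (adjusted p = 0.0159). Both kept their call without replicate 23, Med8 lost it without knockout replicate 19 (adjusted p = 0.111), and neither was called in naive ganglia, where the values were -0.12 and -0.17.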

How the data were processed

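Poly(A) RNA of 15 DRG samples was sequenced. The authors deposited unnormalised read counts per gene, all of them whole numbers. The labels' protocols give Trizol and a stranded mRNA kit, and the build GRCm38, HTSeq 0.6.1, DESeq2, TopHat2 2.0.4, Cufflinks and SAMtools appear in the submitters' processing notes. Neither the annotation release nor the strand setting is given in the sources used here. Symbols and 3′ UTRs came from GENCODE M21, which named 37693 of 39179 identifiers; the rest hold 0.523% of the counts.

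Genes were kept by filterByExpr (minimum count 10), which left 16976 of 27310 genes with a count, with 0.131% of counts outside them. edgeR 4.0.16 (TMM, robust quasi-likelihood F test, two-sided) was fitted to all 15 libraries with 4 group means, 11 residual degrees of freedom. Called means an adjusted p under 0.05 (Benjamini-Hochberg). The SE is the log2 fold change divided by the square root of F. CPM use TMM-scaled totals, and 3 counts are 0.284 to 0.647 CPM in an injured library. Genes named are Slc25a1, Cacna2d1, Cacna2d2, Scn3a, Bdnf and Atf3, the 15 largest rises and falls among called genes with at least 1 CPM and no predicted or sex-linked name, the 12 higher genes with an 8mer and the smallest p, called or leading members of each list, and up to 5 genes in each direction called only without replicate 23. Members and lists were chosen with earlier results of these data known. Results for some genes and 1 site are not reported here. Lists are described by counts and medians, without a test. Alternatives used limma 3.58.1, DESeq2 1.42.0 and sva 3.50.0.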

Additional observations from a re-analysis of the deposited data

How the results depend on the processing

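All 177 genes called after injury kept their sign under each of the 16 alternatives run. Since their groups did not overlap, leaving out a library could hardly change a sign, and the other alternatives refit the same libraries. Of the 177, 49 were called whichever injured library was left out. The number called was 57 to 3558 when 1 injured library was left out, and the highest value was without control replicate 15, the lowest without knockout replicate 19. It was 942 with DESeq2, 361 with limma-voom with quality weights, 112 with 1 surrogate variable, 70 with the Wnt1-Cre control (replicate 15) as the only injured control, which is then assumed to vary like the other groups, and 0 with the 6 injured libraries alone, where 1219 genes had an unadjusted p under 0.05 (edgeR; no other tool was run on them). Without replicate 23 the count was 280 with DESeq2, 41 with quality weights, 12 with the injured libraries alone and 219 with a term for Xist, and 62 to 218 when a further library was left out. The term for Xist, chosen after seeing the data, gave 121 with all libraries, of which 114 were among the 177. In naive animals the count was 501 with DESeq2, 1027 with quality weights, 804 with 1 surrogate variable, 1017 with naive libraries alone and 151 to 229 with 1 left out. For the difference between contrasts it was 13 with DESeq2, 3 with quality weights, 1 with no filter, 2 with the Xist term and 0 to 1235 with 1 left out, the highest again without control SNI replicate 15.

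The share of higher genes with an 8mer was 64.6% with 1 surrogate variable, 26.6% with DESeq2, 81.8% against the Wnt1-Cre control alone, 27.5% with quality weights and 15% to 70.5% with 1 library left out, against 9.33% of all genes. It was 69.2% with 7mer-m8 sites added, and 4.67%, 36.4% and 12.1% for miR-183-5p, miR-96-5p and miR-182-5p alone. The cause of these changes was not tested. Of the gene-level values under the alternatives, 883 kept their side of the threshold or had no adjusted p, 234 lost a call, 51 gained one and none changed sign. Most of these genes were named because they were called, so a change of sign was unlikely. No paired analysis was possible because the labels give the groups no shared replicate numbers.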

Other observations

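Genes outside the naming rule, chosen after their values were seen, were also called whichever injured library was left out. Vat1, a membrane protein first found in synaptic vesicles, had 240, 266 and 192 CPM in control replicates 15, 18 and 23 and 477, 501 and 497 CPM in knockout replicates 13, 19 and 21 (log2 1.08, adjusted p = 0.000216, edgeR). It has no 8mer of the cluster. Gng12, a second G protein gamma subunit that rose beside Gng4, had 37.7, 43.7 and 44.5 CPM in control and 71.2, 61.8 and 60.3 CPM in knockout (log2 0.62, adjusted p = 0.00484). Braf, a kinase of the Ras pathway, had 77.7, 83.6 and 72.7 CPM in control and 118, 113 and 108 CPM in knockout (log2 0.53, adjusted p = 0.00402), and both genes have an 8mer. In each of these 3 genes replicate 23 lay near the other controls or below them.

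Among genes that fell, Ptgfr, the receptor of prostaglandin F2α, had 48.5, 49.0 and 63.2 CPM in control and 24.3, 20.4 and 21.5 CPM in knockout (log2 -1.28, SE 0.15, adjusted p = 0.000342). Cd34, a sialomucin of endothelial and progenitor cells, had 77.0, 63.7 and 73.6 CPM in control and 42.8, 42.9 and 37.4 CPM in knockout (log2 -0.80, adjusted p = 0.00196). Kitl, the ligand of the receptor Kit, had 96.5, 100.3 and 109 CPM in control and 69.8, 74.8 and 73.1 CPM in knockout (log2 -0.49, adjusted p = 0.00908). Control and knockout values of these 3 genes did not overlap, as in every called gene and in 16.2% of all tested genes. None of these 3 genes has an 8mer of the cluster.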
